A study of Mus musculus with 6 samples.

Results

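The MCP and MIP-1 type CC chemokines were followed in macrophage-like cells of THP-1, a line that came from a human acute monocytic leukaemia. The genes were the monocyte chemoattractant protein (MCP) genes CCL2, CCL7, CCL8 and CCL13, the macrophage inflammatory protein (MIP-1) genes CCL3, CCL3L3 and CCL4, and CCL5, which encodes RANTES. They were chosen by name, and near-identical copies of CCL3 and CCL4, whose names start with CCL3L or CCL4L, were read together with them, which added CCL4L2. This gave 9 of the 20036 genes in the deposited table. In all 6 samples the phorbol ester PMA, at 100 ng/ml over 48 h, had turned the cells into adherent macrophages. They grew at the bottom of a Transwell, a culture insert whose porous membrane keeps cell layers apart while soluble factors pass. The 3 melittin samples were then kept for 48 h with tumour cells in the upper chamber and 3 µg/ml melittin, a membrane-lysing peptide from bee venom. What the 3 control samples received in that time, and whether tumour cells were placed above them, is not given in the labels, so an effect of the tumour cells and one of melittin cannot be told apart. The line is of leukaemic origin and PMA-driven, which limits it as a model of tissue macrophages.

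CC chemokines are small secreted proteins named for a pair of neighbouring cysteines near the start of the mature chain. They bind to G protein-coupled receptors on leukocytes and to glycosaminoglycans on cell surfaces and matrix, and draw cells along the gradient that results. CCL2 acts through the receptor CCR2 and is the classical attractant of inflammatory monocytes, while CCL3, CCL4 and CCL5 draw monocytes, T cells and natural killer cells to differing degrees. Macrophages are a main source of both groups, and NF-kB and interferon signals are known inducers. All 9 genes carry the Gene Ontology term for monocyte chemotaxis in the deposited table, a term held by 44 genes in all, and the term for CCR chemokine receptor binding, held by 28.

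The organism label reads mouse, but all 20036 gene identifiers were human and 0 were mouse. Total counts were between 16001423 and 19597781 per library, and each library had counts for 14195 to 14440 genes. Of 12 monocyte and macrophage markers 11 were tested, with 4 higher and 5 lower with melittin. Over all 12029 genes tested 38.1% passed as higher and 38.3% as lower, and nothing particular to the markers is read from these counts. The summed level of the 12 markers was 1926 to 1944 CPM in controls and 1292 to 1331 CPM with melittin. CPM stands for read counts scaled to library size. The median log2 fold change of the 11 tested markers was 0.02, so the fall of the sum was not shared by all markers. The macrophage marker CD68 had 1 count in all 6 libraries together. The counting program is not stated in the labels, so this value is given as listed and not read as absence of CD68. Of 11 epithelial and prostate markers, EPCAM, KRT18, KRT19, KRT5, KLK2 and TMPRSS2 had 0 counts, and KLK3 had 0 in controls and 2 with melittin. Summed markers reached at most 0.295 CPM for T cells and 1.14 CPM for B cells. They were 21.0 to 22.4 CPM in controls and 26.9 to 29.1 CPM with melittin for fibroblasts, with COL1A2 at 0, and 285 to 295 CPM against 284 to 297 CPM for endothelial cells, nearly all from PECAM1, which monocytes also express. The part of any of these shifts in the results below was not tested. In bulk RNA, fewer cells of a type and less RNA per cell cannot be told apart. Since the labels do not say whether replicates came from separate cultures, p-values cover the spread among these 6 libraries, which may be technical.

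The MIP-1 genes and CCL5 were higher with melittin and 3 MCP genes were lower. CCL13 did not pass the filter on low counts, which can be met by either group alone and which CCL8 met through the controls. The other 8 of the 9 genes passed it. By the edgeR quasi-likelihood test, 5 of these 8 rose (CCL3, CCL3L3, CCL4, CCL4L2 and CCL5) and 3 fell (CCL2, CCL7 and CCL8) at an adjusted p of 0.05. So wide a change was common in these libraries: 76.4% of the 12029 genes tested passed, 38.1% as higher and 38.3% as lower. Against a change of 1.5-fold rather than 0, where 29.1% of all genes passed, 5 rose and 2 fell, and CCL2 did not pass. The median log2 fold change over the 8 genes was 2.36, beside −0.01 over all genes tested. With the copies of CCL3 and of CCL4 summed, 6 genes were tested, 3 rose and 3 fell, and the median was 1.002. Under scaling by library totals alone, 3159 of all genes passed as higher and 6244 as lower, against 4578 and 4612. That scaling moved the median over all genes from −0.01 to −0.24 on the log2 scale, and of the tested members 5 still passed as higher and 3 as lower.

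**Figure D1:**
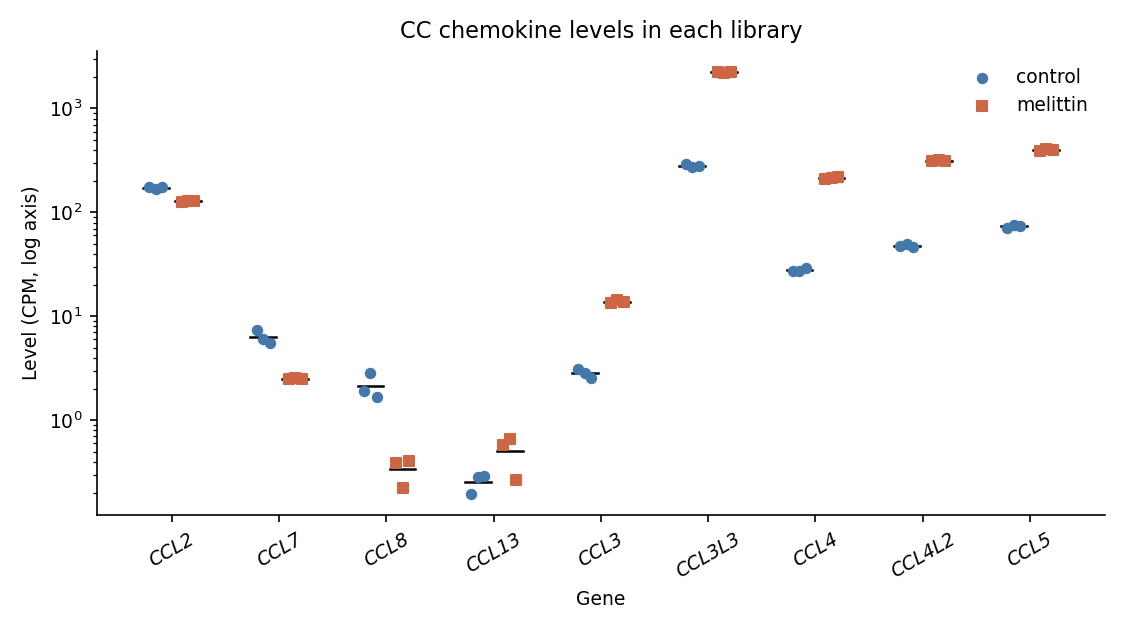
Level of each of the 9 genes in each library (vertical axis: CPM on a log axis; circles, 3 control libraries; squares, 3 melittin libraries; black lines, group means). The groups overlap for CCL13 alone, where 77.4% of all genes tested had no overlap. CCL3L3 is the highest in each group, at a mean of 281.7 CPM in controls and 2230 CPM with melittin.

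Among the MCP genes CCL2, the ligand of CCR2, was the most abundant. CCL2 (chromosome 17, 34255274 to 34257208, plus strand, GRCh38) had 3581, 3561 and 3033 reads in the controls, against 1950, 2310 and 1915 with melittin (libraries always in the order of replicates 1, 2 and 3). On the CPM scale these were 176, 168 and 175 in controls and 127, 129 and 128 with melittin. The 3 melittin libraries lay close together and below all controls. The mean was 173 ± 4.66 CPM in controls and 128 ± 0.956 CPM with melittin (SD, n = 3), 1.35-fold lower (log2 fold change −0.44, SE 0.0319, edgeR adjusted p = 1.25e-12). The fall was larger with the trend of fold change on gene length removed (−0.71) or under scaling by library totals alone (−0.67), and against 1.5-fold CCL2 did not pass (adjusted p = 1.0).

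CCL7 (MCP-3), a ligand of several CC receptors including CCR2, lies next to CCL2 (chromosome 17, 34270221 to 34272242, plus strand). CCL7 stood at 7.38, 6.03 and 5.49 CPM in controls and 2.47, 2.56 and 2.48 CPM with melittin, from 95 to 150 counts in a control and 37 to 46 in a melittin library. Every melittin library was below every control, and the controls were the more spread. Such a gap between the groups, in either direction, was found in 77.4% of all genes tested. The log2 fold change of CCL7 was −1.33 (SE 0.172, edgeR adjusted p = 8.44e-08), 2.52-fold lower. CCL8 (MCP-2, chromosome 17, 34319435 to 34321402, plus strand), which is also known as an interferon-inducible monocyte attractant, was a low transcript with 39, 61 and 29 counts in controls and 6, 4 and 6 with melittin. Its level was 1.92, 2.87 and 1.68 CPM in controls and 0.39, 0.223 and 0.402 CPM with melittin, with control replicate 2 the highest and no overlap. CCL8 was 6.44-fold lower, a log2 fold change of −2.69 (SE 0.377, edgeR adjusted p = 3.44e-07). On log2(FPKM + 1), a scale that compresses low values and uses library totals alone, its difference was −1.43. CCL8 met the filter on low counts through the controls alone, so it could hardly have passed as higher. Without that filter its log2 fold change was −2.705 (edgeR adjusted p = 3.91e-12). Going from CCL2 to CCL7 to CCL8 the fall was larger and the level lower. The differences between these genes were not tested.

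CCL13 (MCP-4, chromosome 17, 34356480 to 34358610, plus strand), an attractant of monocytes and eosinophils, had 4, 6 and 5 counts in controls and 9, 12 and 4 with melittin, and the groups overlapped. The 15 counts in controls correspond to 0.276 CPM by library total (95% exact Poisson interval 0.154 to 0.455) and the 25 with melittin to 0.478 CPM (0.309 to 0.705), intervals that cover counting error only. CCL13 was left out of the test by its low counts. Without that filter its log2 fold change was 0.98 (edgeR adjusted p = 0.178), and without melittin replicate 3, the lowest of its group, it was 1.28 and passed (adjusted p = 0.0472). A change of CCL13 was thus not detectable at this depth with all 6 libraries. CCL11 (eotaxin), which lies between CCL7 and CCL8, had 0 counts in every library, and 3 counts over each group, the limit used here for a count of 0, correspond to 0.0552 CPM in controls and 0.0573 with melittin. The upper bounds of the 95% exact Poisson interval, as used for CCL13, were 0.0679 and 0.0705 CPM.

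The MIP-1 genes rose together. CCL3L3, a copy of the MIP-1α gene (chromosome 17, 36194869 to 36196758, minus strand), had 5875, 5859 and 4846 counts in controls and 34333, 39625 and 33579 with melittin. Its level was 289, 276 and 280 CPM in controls and 2233, 2206 and 2251 CPM with melittin, 7.92-fold higher, a log2 fold change of 2.98 (SE 0.0234, edgeR adjusted p = 1.5e-34). By FPKM, which scales counts to gene length and library total, its mean went from rank 121 of 15337 genes above 0 in controls to rank 19 of 15228 with melittin. CCL3 itself (MIP-1α, chromosome 17, 36088256 to 36090169, minus strand) was listed far lower, with 63, 60 and 44 counts in controls and 205, 258 and 205 with melittin. The mean of CCL3 was 2.82 ± 0.279 CPM in controls, against 13.8 ± 0.518 CPM with melittin (log2 fold change 2.28, SE 0.13, edgeR adjusted p = 4.66e-15). In each of these genes the 3 melittin libraries lay above all controls.

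CCL4 (MIP-1β, chromosome 17, 36103827 to 36105621, plus strand), an attractant of T cells and monocytes, had 550, 574 and 510 counts in controls and 3230, 3822 and 3238 with melittin. On the CPM scale CCL4 was at 27.1, 27.0 and 29.5 in controls and at 210.1, 213 and 217 with melittin, a log2 fold change of 2.94 (SE 0.0407, edgeR adjusted p = 4.67e-29). Its copy CCL4L2 (chromosome 17, 36210924 to 36212878, plus strand) was at 47.2, 49.4 and 46.3 CPM in controls and at 310.9, 321 and 309 CPM with melittin, a log2 fold change of 2.72 (SE 0.0345). The groups stood well apart for both. CCL5 (RANTES, chromosome 17, 35871491 to 35880793, minus strand), a ligand of CCR1 and CCR3, had 70.7, 75.4 and 74.5 CPM in controls and 390.0, 404 and 403 CPM with melittin. CCL5 was 5.43-fold higher, a log2 fold change of 2.44 (SE 0.0318, edgeR adjusted p = 1.07e-29), from 1290 to 1602 counts in a control and 5996 to 7260 in a melittin library.

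**Figure D2:**
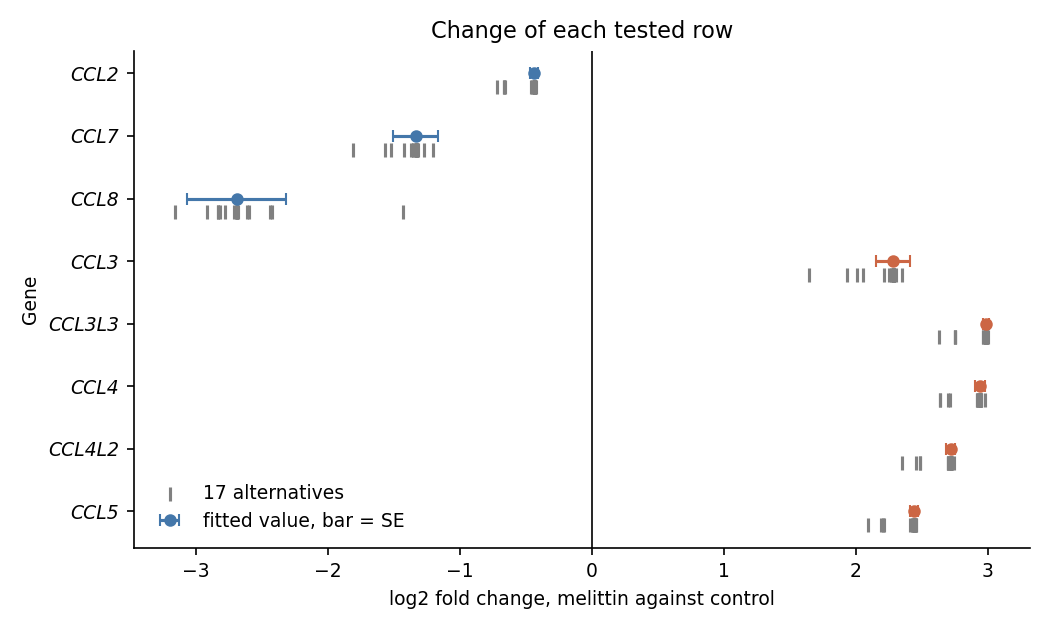
log2 fold change of melittin against control for the 8 tested genes (circles, fitted values with their SE as bars; grey ticks, the same value under 17 alternative settings). CCL2, CCL7 and CCL8 lie below 0 and the other 5 above 0 under each setting, and the tick of CCL8 at −1.43 is that on log2(FPKM + 1).

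Near-identical copies cannot be told apart with certainty by short reads, so the copies were also summed. CCL3 and CCL3L3 together went from 284 ± 6.93 to 2244 ± 22.4 CPM, 7.89-fold higher (log2 fold change 2.98, SE 0.0234, edgeR adjusted p = 1.67e-34). CCL4 and CCL4L2 together went from 75.5 ± 1.08 to 527 ± 6.51 CPM, 6.98-fold higher (log2 fold change 2.80, SE 0.029, edgeR adjusted p = 6.09e-32). Whatever the division between copies, the summed MIP-1α and MIP-1β reads of each melittin library exceeded those of all 3 controls.

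The division of reads between the copies, looked at after the values were seen, was very uneven for MIP-1α. CCL3 took 1.06%, 1.01% and 0.90% of the reads of CCL3 and CCL3L3 in the controls (95% Wilson intervals from 0.671% to 1.36%) and 0.594%, 0.647% and 0.607% with melittin (from 0.518% to 0.73%). The share was lower in every melittin library, 0.616 ± 0.0278% on average against 0.991 ± 0.0828%. CCL4 took 36.4%, 35.4% and 38.9% of the reads of CCL4 and CCL4L2 in the controls and 40.3%, 39.8% and 41.2% with melittin, 3.57 points higher on average. For each of the 2 shares the groups did not overlap, and the two-sided exact permutation test gave p = 0.1 (0.1 after adjustment over both), the smallest value that 3 against 3 libraries allow. Wilson intervals cover counting error only. How the counting treated reads that match several copies is not given in the sources used here. CDC42, a gene that most cells use, was also listed low, with 39 counts in all controls and 43 in all melittin libraries. CDC42 is a single example, named after its values were seen. Whether the counting lowers CCL3 was not tested, and its low level relative to CCL3L3 is given as listed. None of the 9 genes overlaps another gene of the table on either strand.

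**Figure D3:**
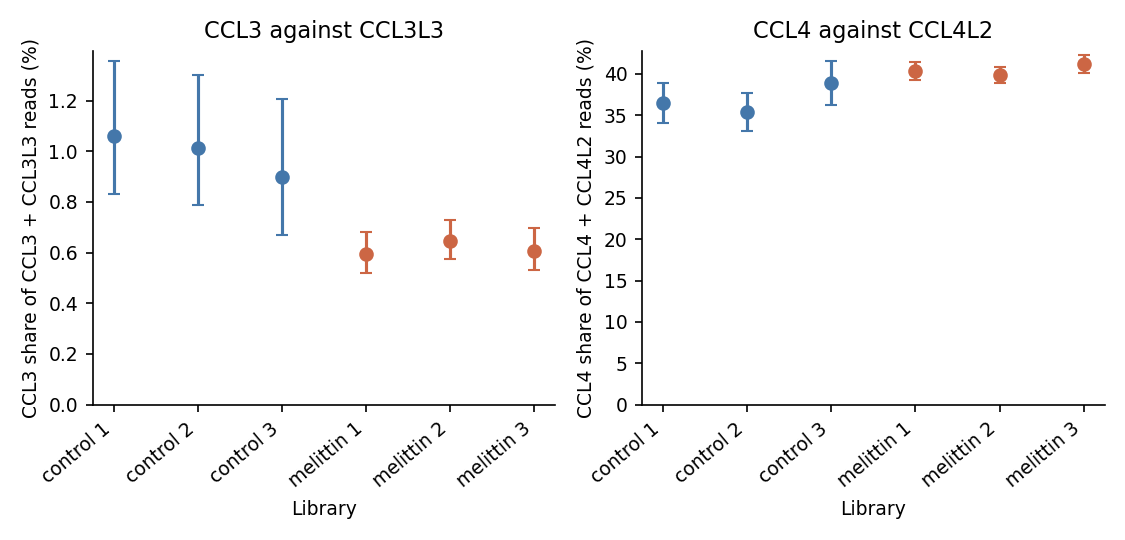
Share of reads that the table lists under CCL3 of those of CCL3 and CCL3L3 (left) and under CCL4 of those of CCL4 and CCL4L2 (right), in percent for each library (points, with 95% Wilson intervals; blue, control; orange, melittin). The CCL3 share is at most 1.06% in all 6 libraries and lower with melittin, and the CCL4 share is between 35.4% and 41.2%.

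The balance between the groups of chemokines shifted. The 9 genes together took 0.0658 to 0.0675% of all counts in controls and 0.303 to 0.306% with melittin. Their summed FPKM was 424 ± 5.18 in controls and 2036 ± 11.7 with melittin, 4.80 times as high. FPKM scales by library totals alone, so changes on it differ from the fitted fold changes above. For CCL2 that scaling gave a log2 fold change of −0.67, against −0.44 in the main fit. The 4 MCP genes made up 25.4 ± 0.308% of this sum in controls and 3.17 ± 0.0283% with melittin, and the 4 MIP-1 genes 62.1 ± 0.292% and 84.8 ± 0.231%. CCL2 alone went from 22.8 ± 0.424% to 3.00 ± 0.0219% of the sum while its own FPKM went from 96.8 ± 2.57 to 61.0 ± 0.257 and that of the 4 MIP-1 genes together from 263 ± 4.42 to 1726 ± 12.8. CCL3L3 held 48.9 ± 0.583% in controls and 68.8 ± 0.464% with melittin. The share of CCL5 was 12.5 ± 0.578% and 12.1 ± 0.213%, with overlapping groups.

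By FPKM the order in controls was CCL3L3, CCL2, CCL5, CCL4L2, CCL4, CCL7, CCL8, CCL3 and CCL13, and with melittin CCL3L3, CCL5, CCL4L2, CCL4, CCL2, CCL3, CCL7, CCL13 and CCL8. CCL2 thus stood in the second place in controls, at rank 319 of all genes, and below CCL5 and both CCL4 genes with melittin, at rank 568. CCL5 went from rank 647 to rank 129 and CCL4L2 from rank 998 to rank 154. Neighbours in these orders did not overlap in their 3 libraries, other than CCL8 and CCL3 in controls (2.71 ± 0.797 and 2.05 ± 0.204 FPKM) and CCL13 and CCL8 with melittin (0.569 ± 0.237 and 0.362 ± 0.108 FPKM).

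**Figure D4:**
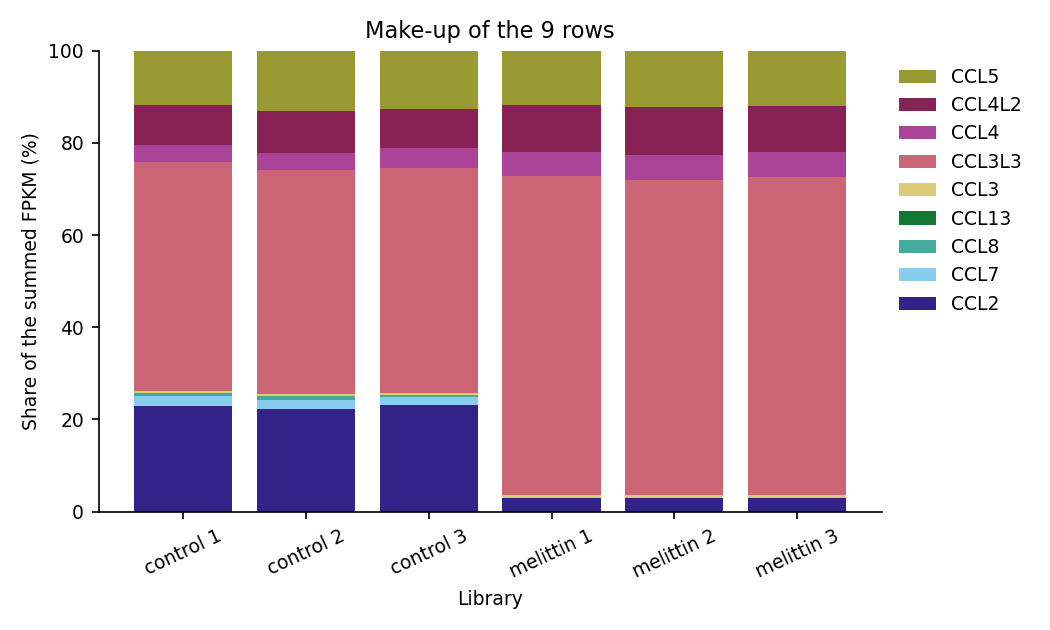
Share of each gene in the summed FPKM of the 9 genes (vertical axis: percent; horizontal axis: the 3 control and 3 melittin libraries). CCL2 shrinks from about 22.8% to 3.00% while CCL3L3 widens from 48.9% to 68.8%, and replicates of a group look alike.

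All 9 genes lie on chromosome 17, in 2 clusters. CCL2, CCL7, CCL8 and CCL13 stand within 101 kb of the start of CCL2, all on the plus strand, and CCL1, an attractant of T cells and monocytes through CCR8, follows at 105 kb on the minus strand. The mean of CCL1 was 9.54 ± 0.747 CPM in controls, against 50.6 ± 0.49 CPM with melittin (log2 fold change 2.41, SE 0.0727, edgeR adjusted p = 2.97e-21), so that genes of this cluster moved in opposite directions. Of the genes in the table, those between CCL2 and CCL1 are CCL7, CCL11, CCL8 and CCL13, and no gene of another kind lies there. The second cluster starts with CCL5 at 1616 kb and runs to CCL4L2 at 1956 kb. Its 5 tested genes all rose, where 38.1% of all genes tested passed as higher. They include the near-identical copies of CCL3 and of CCL4, which may share reads and are not separate signals. In the same stretch CCL14, CCL15 and their readthrough had 0 counts, CCL16 had 1 in all, CCL23 had 10 in controls and 6 with melittin, and CCL18 had 10 and 1.

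Genes of other kinds around the clusters went both ways. Within the clusters, the stretch between them and 500 kb on each side there were 39 other genes, of which 17 were tested, 6 rose and 6 fell, with a median log2 fold change of −0.01. Of the 25 between CCL1 and CCL5, 10 were tested, with 4 higher and 4 lower. Over all genes tested 38.1% passed as higher and 38.3% as lower, and nothing particular to the region is read from these counts. The values of these 17 genes lay between −1.10 for PIGW and 1.23 for TBC1D3F, both chosen after their values were seen. The TBC1D3 genes are near-identical copies of each other, and TBC1D3F had only 18 counts in all controls and 35 in all melittin libraries.

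**Figure D5:**
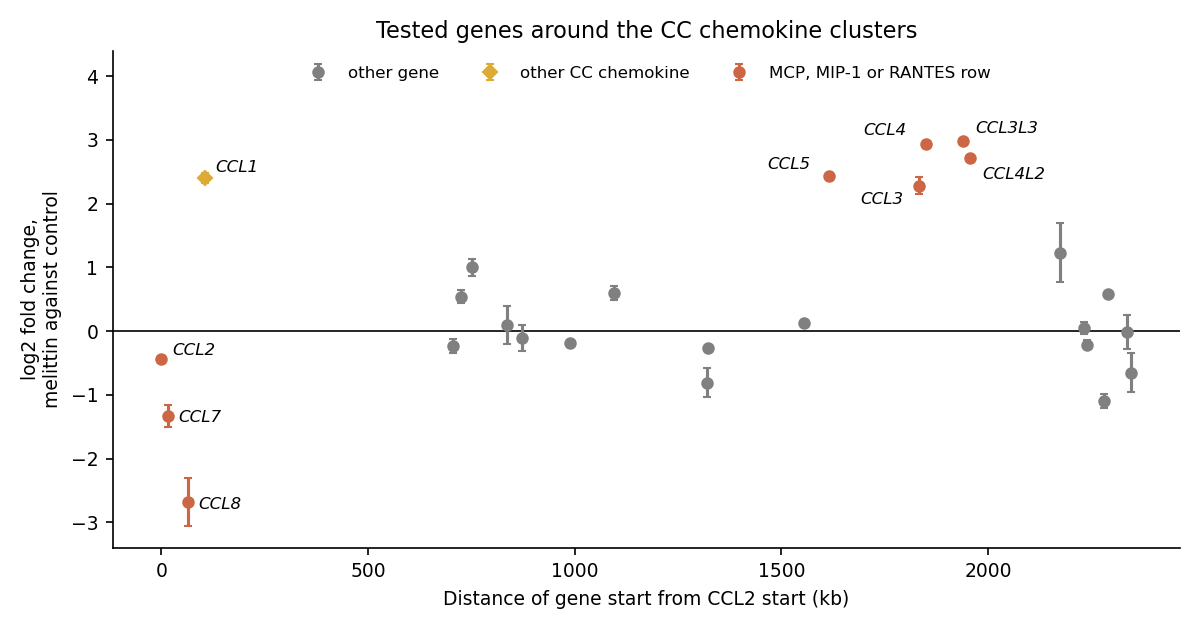
log2 fold change (vertical axis, bars are SE) of the tested genes around the CC chemokine clusters, by distance of the gene's start from that of CCL2 in kb (horizontal axis; orange circles, MCP, MIP-1 and RANTES genes; yellow diamond, CCL1; grey circles, other genes). CCL2, CCL7 and CCL8 lie below 0 beside CCL1 at 2.41. All 5 tested genes of the cluster from CCL5 to CCL4L2 lie above 2, among them the near-identical copies of CCL3 and of CCL4.

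Genes that act with these chemokines were taken from 7 lists, and their counts are read beside the 76.4% of all genes that passed. Of 8 receptors and decoy receptors 2 were tested. CCR1, the receptor of CCL3, CCL5 and CCL7, went from 30.6 ± 1.35 to 46.3 ± 0.675 CPM (log2 fold change 0.60, SE 0.0573, edgeR adjusted p = 3.5e-10). This change did not pass against 1.5-fold (edgeR adjusted p = 0.507). It was 0.36 under scaling by library totals alone and 0.34 on log2(FPKM + 1). CCRL2, a non-signalling relative, had a log2 fold change of −0.30 (edgeR adjusted p = 0.0678) and passed as lower in some alternatives, among them scaling by library totals alone, removal of the length trend and leaving out melittin replicate 2. Among the receptors that were not tested, CCR2 had 3 counts in all controls and 2 with melittin, and CCR3 and the scavenging ACKR1 had 0. In the signalling list 10 of 20 genes rose and 9 fell. Scaling by library totals alone gave 5 and 10, and against 1.5-fold 0 passed as higher and 2 as lower. There RAC2, a GTPase of leukocyte movement, went from 456 ± 4.14 to 701 ± 20.7 CPM. This difference of 0.62 on the log2 scale did not pass against 1.5-fold (edgeR adjusted p = 0.0711). It was 0.39 both under scaling by library totals alone and on log2(FPKM + 1). ARRB1, a β-arrestin, fell by 0.92, and the kinase JAK2 by 0.88 on the log2 scale. RGS16, a brake on G protein signals and the most abundant of the list, had a log2 fold change of 0.10 that turned to −0.13 under scaling by library totals alone and to −0.11 with the length trend removed.

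Of 15 proteases and glycosaminoglycan carriers 9 rose and 4 fell, and against 1.5-fold 6 passed as higher and 2 as lower. SRGN, the proteoglycan serglycin that holds chemokines in secretory granules, went from 334 ± 5.94 to 1547 ± 23.9 CPM (log2 fold change 2.21, SE 0.0234, edgeR adjusted p = 1.04e-31). MMP12, macrophage elastase, which can cut CC and CXC chemokines, went from 33.2 ± 1.12 to 4.03 ± 0.6 CPM and had a log2 fold change of −3.03. CTSG, cathepsin G, rose from 0.118 ± 0.0216 to 0.847 ± 0.0431 CPM, with 7 counts in all controls and 41 with melittin, and its log2 fold change of 2.77 was 0.52 on log2(FPKM + 1). CTSG met the filter on low counts through the melittin libraries, so it could hardly have passed as lower. MMP14, the most abundant, rose by 0.54 on the log2 scale and did not pass against 1.5-fold. It rose by 0.31 both under scaling by library totals alone and on log2(FPKM + 1).

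Of 21 transcription factors known to act on chemokine genes 14 rose and 5 fell. BCL6, a repressor that is known to bind chemokine genes, went from 321 ± 3.81 to 741 ± 18.7 CPM (log2 fold change 1.21), and FOS, an AP-1 subunit, from 80.8 ± 2.02 to 161 ± 4.35 CPM (log2 fold change 0.998). Of 10 RNA-binding regulators of cytokine transcripts 5 rose and 3 fell, and scaling by library totals alone gave 4 and 6. ZC3H12A (regnase-1) and ZFP36 (tristetraprolin), which both promote decay of cytokine transcripts, rose by 1.62 and 1.41 on the log2 scale. The ZFP36 relatives ZFP36L2 and ZFP36L1 rose by 1.06 and 0.43. Of these, ZFP36L1 did not pass against 1.5-fold, and was at 0.20 under scaling by library totals alone and 0.19 on log2(FPKM + 1). Against 1.5-fold 8 of the transcription factors passed as higher and 1 as lower, and 3 and 1 of the RNA-binding regulators.

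Of 17 other CC chemokines only 5 passed the filter, and 4 of these rose. CCL1 is given above, and CCL22, CCL24 and CCL20 had log2 fold changes of 5.29, 2.51 and 1.62. CCL28, a mucosal chemokine named because it was the single member that fell, went from 20.9 ± 2.02 to 7.55 ± 0.885 CPM (log2 fold change −1.46, edgeR adjusted p = 9.23e-13). Of 20 upstream cytokines and receptors 19 were tested, of which 11 rose and 7 fell. CSF2, IL6, IL1RN and IL1B were the named members there, with log2 fold changes of 5.90, 3.69, 1.79 and 0.94. Against 1.5-fold 10 of these 19 passed as higher and 2 as lower. Summed over the controls, CSF2 had 12 counts, IL6 24, CCL22 17 and CCL24 41. The filter on low counts can be met by either group alone. CSF2, IL6 and CCL22 met it through the melittin libraries and could hardly have passed as lower, so their direction is not read as support for a rise of their lists. On log2(FPKM + 1) the differences were 3.61 for CSF2, 0.96 for IL6, 2.07 for CCL22 and 1.23 for CCL24, and all 4 still passed as higher.

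The genes whose values over the 6 libraries ran closest to those of the most abundant MCP and MIP-1 genes were sought among 11361 other tested genes with a mean of at least 1 CPM. Likeness was the root mean square distance of log2 CPM values, each centred on the control mean. For CCL2 these were FNDC3B (distance 0.01), UBE4A (0.0168) and ACTR3 (0.0199), with log2 fold changes of −0.43, −0.42 and −0.45. For CCL3L3 they were STC1 (0.0475), which encodes the secreted glycoprotein stanniocalcin-1, CCL4 (0.0623) and the neutrophil attractant CXCL1 (0.0828), with log2 fold changes of 2.96, 2.94 and 2.88. With 2 groups of 3 libraries this likeness reflects chiefly the fold change between the groups, and it is a description with no test.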

How the data were processed

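RNA was sequenced from 3 control and 3 melittin samples of THP-1 macrophages. NEBNext Ultra II RNA libraries were prepared, per the labels' protocols, and GRCh38 was the build, per the submitters' processing notes. For the aligner, the counting program and the strand setting nothing is stated in the labels. The deposited table holds raw read counts per gene, made by the authors, and FPKM values that the authors made from each count, the gene length and the library total of that table (largest relative deviation 2.23e-09 at 20 counts or more).

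The members and gene lists were chosen with earlier results of these data known. Counts were fitted with edgeR 4.0.16 in R 4.3.3: filterByExpr (12029 genes), TMM scaling, glmQLFit and glmQLFTest (two-sided), Benjamini-Hochberg adjustment over all genes tested and a threshold of 0.05. A second fit summed the copies of CCL3 and of CCL4. CPM values use TMM-scaled library sizes, and FPKM values are as deposited. An SE is the log2 fold change divided by the square root of the F statistic. A single count was 0.051 to 0.0625 CPM by library total. From each list the text names up to 3 passing members with the largest change and the most abundant one, and other genes were named after their values were seen. Values of some list and marker genes, and the summed level of the epithelial and prostate markers that rests on them, are not reported here. Alternatives were other scalings, filters and tests (DESeq2 1.42.0, limma 3.58.1), a replicate block, removal of the length trend and leaving out each library. The fit was also run on simulated data with 200 of 12029 genes changed, up and down in equal number, and the same dispersion for every gene. It recovered 85.1% of those set to 1.5-fold, 88.1% at 2-fold and 100.0% at 4-fold, and 3.19% of its calls were false. In the data 76.4% of genes passed and dispersion was not fixed, so these rates may not carry over to the real libraries. Replicates differed by more than sampling noise (chi-square per degree of freedom 1.73 to 3.92 within groups), so each library was counted once. The biological coefficient of variation was 3.01%.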

Additional observations from a re-analysis of the deposited data

How the results depend on the processing

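The 8 tested genes kept their direction under all 17 alternatives, and all but CCL2 against 1.5-fold kept their side of the threshold. The median log2 fold change over the tested members was 2.13 under scaling by library totals alone, 2.27 without the low-count filter, 2.01 with the length trend removed, 2.01 on log2(FPKM + 0.1) and 1.65 on log2(FPKM + 1), and between 2.22 and 2.38 with a library left out. CCL13 enters without the filter, on FPKM and without control replicate 3 or melittin replicate 3. With copies summed, an alternative chosen after seeing the data, the median was 1.002 and 3 members rose. Over all genes 1761 passed as higher and 1734 as lower against 1.5-fold, and 3218 and 6276 on log2(FPKM + 0.1). RGS16 turned to −0.13 with totals alone, −0.11 with the length trend removed, −0.13 on log2(FPKM + 0.1) and −0.13 on log2(FPKM + 1). The FPKM settings also scale by library totals, so they are not separate from the setting with totals alone. In each of these cases the cause was not tested. The members are short (823 to 1935 bases), and the trend at their lengths was 0.28 to 0.48 on the log2 scale. Same-numbered libraries did not deviate together (correlations −0.0351, −0.0204 and 0.000563), and with the replicate number as a block 4513 genes passed as higher and 4537 as lower, 5 and 3 members passed, and the summed CCL3 and CCL4 genes kept log2 fold changes of 2.98 and 2.80. Depth limits CCL13 and CCL8 most.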
